A study of Schizosaccharomyces pombe with 6 samples.

Results

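Small nucleolar RNAs (snoRNAs) and small nuclear RNAs (snRNAs) were examined in fission yeast (*Schizosaccharomyces pombe*) as the rows of the count table whose systematic ID starts with SPSNORNA or SPSNRNA. This prefix selected 60 of the 6988 rows, 53 SPSNORNA and 7 SPSNRNA genes, without use of any measured value. The RefSeq annotation calls 55 of them snoRNAs and 5 snRNAs, because U3 (snu3) and its second copy U3B (snu32) carry the SPSNRNA prefix but are snoRNAs. A further 6 rows of the count table that the annotation calls snoRNAs have other ID prefixes and are not among the 60.

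The study asked how loss of inositol pyrophosphate breakdown affects transcription once Spx1 is also gone. RNA-seq was performed on poly(A)+ RNA of 3 biological replicate cultures of the mutant, haploid h- *asp1-H397A aps1*∆ *siw14*∆ *spx1*∆ cells, and of 3 cultures of wild-type (WT) haploid h- cells. Asp1-H397A lacks the pyrophosphatase activity of the bifunctional kinase and pyrophosphatase Asp1, Aps1 and Siw14 are the other inositol pyrophosphatases, and the 4 alleles are marked with *natMX*, *kanMX*, *hygMX* and *ura4MX*, in the order of the genotype. Both strains were in log phase at 30°C in ePMGT medium, and the mutant libraries are those of a single strain with all 4 alterations, so no effect can be assigned to 1 allele. Total counts were 20305111 to 22690741 in mutant libraries and 16593476 to 21436751 in WT libraries. Of the deleted genes, *aps1* had 307 to 330 counts in mutant libraries against 3083 to 3657 in WT libraries, *siw14* had 70 to 107 against 1925 to 2666, *spx1* had 1915 to 2369 against 4524 to 6452, and the marker *ura4* had 8309 to 9631 counts in mutant libraries and 0 in every WT library. The strains thus also differed in *ura4*, and an effect of that difference cannot be told apart from effects of the 4 alterations. How much of each counted gene the deletions removed is not stated in the sources, so the counts left over *spx1* and the others cannot be placed. *asp1* had 927 to 1034 counts in mutant libraries against 1199 to 1417 in WT libraries, which cannot show the H397A change. The M mating type genes *mfm1*, *mfm2*, *mfm3* and *mam2* had counts in all 6 libraries, as did the P type genes *map1*, *map2* and *map3*, at 35 to 311 counts per library. All 4 M type genes were lower in the mutant at the edgeR adjusted p (*mfm1* had 9 to 10 counts in mutant libraries against 95 to 142 in WT libraries), *map1* and *map2* were lower too, and *map3* did not pass. The labels call both strains h-, and these counts do not settle the mating type.

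Box C/D snoRNAs guide 2′-O-methylation and box H/ACA snoRNAs guide pseudouridylation of ribosomal RNA, each by base pairing from within a protein particle, and a few of them, such as U3, U14 and snR30 (U17), act in the cleavage of the ribosomal RNA precursor. The spliceosomal snRNAs U1, U2, U4, U5 and U6 are the RNA cores of the particles that remove introns. The mature forms of all these RNAs lack a poly(A) tail, whereas snoRNA precursors in fission yeast can carry one and are trimmed by the nuclear exosome with the poly(A)-binding protein Pab2. Libraries made from poly(A)+ RNA therefore sample small RNA precursors, tailed forms and carried-over RNA, which cannot be told apart in counts, and the levels below are not levels of the mature RNAs.

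The sequences of the members that the comparison of strains turns on, and of the most abundant member, are shown because they carry the class-defining boxes. They were taken from the RefSeq annotation of the ASM294v3 build by systematic ID, and all 60 members were matched. They are written 5′ to 3′ as DNA of the RNA strand. In RNAs not annotated as H/ACA, capitals mark the letters TGATGA within the first 30 bases and CTGA within the last 30 bases. In annotated H/ACA RNAs, capitals mark ACA followed by 3 bases at the 3′ end of the annotated gene. snoU14 and snoR39b hold both C/D boxes, snoR54 holds CTGA, snR33 and snR95 hold the ACA, and the annotated end of snR42 has no ACA at that place.
snoU14: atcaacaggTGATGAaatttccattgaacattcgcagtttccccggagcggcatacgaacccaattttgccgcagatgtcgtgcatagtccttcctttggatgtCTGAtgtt
snoR39b: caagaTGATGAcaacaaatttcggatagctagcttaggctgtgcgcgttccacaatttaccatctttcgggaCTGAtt
snoR54: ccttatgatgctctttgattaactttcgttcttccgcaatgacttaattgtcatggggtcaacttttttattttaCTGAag
snR33: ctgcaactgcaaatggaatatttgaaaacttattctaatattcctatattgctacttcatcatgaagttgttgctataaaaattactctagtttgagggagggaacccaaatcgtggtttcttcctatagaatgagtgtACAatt
snR95: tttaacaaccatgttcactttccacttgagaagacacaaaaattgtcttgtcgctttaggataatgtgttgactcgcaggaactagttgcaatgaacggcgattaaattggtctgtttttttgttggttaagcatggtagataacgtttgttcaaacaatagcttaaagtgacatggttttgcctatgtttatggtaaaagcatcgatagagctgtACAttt
snR42: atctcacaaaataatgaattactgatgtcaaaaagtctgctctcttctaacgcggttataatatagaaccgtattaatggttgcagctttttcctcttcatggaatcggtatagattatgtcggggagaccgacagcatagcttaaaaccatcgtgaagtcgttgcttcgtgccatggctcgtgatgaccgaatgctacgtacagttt

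Of the 19 members whose annotated product names box H/ACA, 9 ended in the ACA box, and all 19 were 142 to 488 bases long. The other 36 snoRNAs were 47 to 326 bases long, and 18 of them held both TGATGA and CTGA at those places, searched on the RNA strand. For scale, 0.118% of 299326 genome windows of 84 bases held both C/D boxes and 1.71% of 149662 windows of 168 bases ended in the ACA box. One of the 36, snR30, also ends in the ACA box, which is the type known for U17 RNAs. None of the 5 spliceosomal snRNAs, 120 to 187 bases long, held both C/D boxes or the ACA box. A match of letters is a description and was not used to assign a class.

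Counts were found for 48 of the 60 members in at least 1 library and for 40 in all 6 libraries, while 12 had 0 counts in every library. A count of 0 allows up to 3 counts, or 0.132 to 0.181 CPM depending on the library. This bound covers counting error only, so it sets no limit on reads left uncounted where genes overlap. CPM is the count of a gene per 1000000 counts of its library. Only 26 members had 10 or more counts in every library and 4 had 100 or more, and for 9 detected members no library reached 10. The 48 were 15 of the 19 H/ACA members, 28 of the other 36 snoRNAs and all 5 snRNAs. Most of what follows therefore rests on low counts.

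Detection differed by the position of the gene. The 8 members that lie wholly inside an exon of a counted noncoding gene on the same strand were at 0 in all 6 libraries. These are snoZ3, snoZ4, snoZ5, snoZ7 and snoZ8 inside the polycistronic *snoZ* gene, snoZ30 inside SPNCRNA.1483, snoR68 inside SPNCRNA.1650, and snR97 inside SPNCRNA.617. The enclosing genes themselves had counts: *snoZ* had 41, 55 and 50 counts in mutant libraries and 63, 53 and 26 in WT libraries, with a log2 fold change of -0.10, and neither it nor the other 3 enclosing genes passed the test between strains. The 10 members inside introns of protein-coding genes were all detected. Of the 42 members in neither position, 38 were detected, and sno16, snR5, snR10 and snR46 were at 0. The sources used here do not give how reads on overlapping genes were counted, and its part in the zeros was not tested. The same limit holds for 5 detected members that lie wholly inside a counted exon of the opposite strand, namely snoR02, sno52, sno20, snR92 and snr79, since the sources do not say whether counting used strand.

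**Figure D1:**
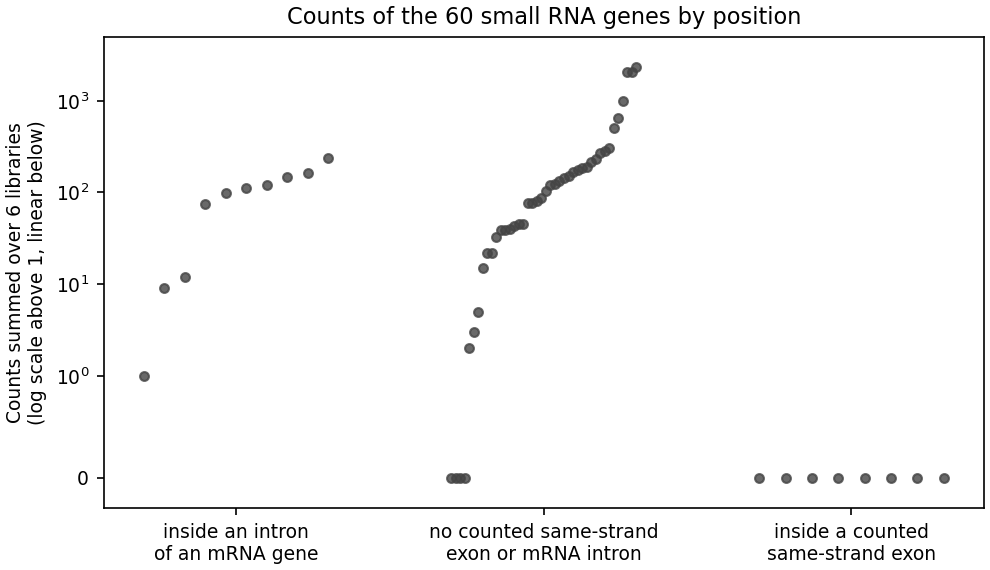
Counts of each of the 60 members summed over the 6 libraries (vertical axis, log scale above 1), with 1 point per member, split by gene position. All 8 members inside a counted same-strand exon sit at 0, all 10 inside mRNA introns are above 0, and the members in neither position hold both the highest sums and 4 zeros.

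The 60 members together took 102.9, 102.3 and 101.2 CPM in mutant libraries and 132.2, 103.0 and 101.6 CPM in WT libraries. The means were 102 ± 0.87 CPM in the mutant and 112 ± 17.3 CPM in WT (SD, n = 3 each), a ratio of 0.91. WT replicate 1 was above all other libraries, and without it the ratio was 0.998, so the summed class showed no difference beyond the spread between WT cultures. The 4 most abundant members made up 51.2 to 61.6% of the sum in each library. Without those 4 the means were 42.6 ± 2.17 CPM in the mutant and 49.6 ± 13.3 CPM in WT (SD), a ratio of 0.86. The 19 H/ACA members summed to 41.9, 42.5 and 44.7 CPM in mutant libraries and 56.1, 46.8 and 45.6 CPM in WT libraries. These sums did not overlap, but the closest libraries of the strains differed by less than the mutant libraries did among themselves.

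The sums of 2 smaller groups also did not overlap between strains, in opposite directions. The 7 SPSNRNA members, the 5 spliceosomal snRNAs and both U3 genes, summed to 2.60, 2.81 and 2.37 CPM in mutant libraries and to 5.85, 3.55 and 3.47 CPM in WT libraries, a ratio of the means of 0.60. Most of these counts came from the 2 U3 genes, so the ratio is mainly that of U3. No spliceosomal snRNA had more than 12 counts in any library, and U4 had 6, 7 and 3 counts in mutant libraries against 4, 1 and 1 in WT libraries. The 10 members in mRNA introns summed to 9.96, 8.96 and 8.31 CPM in mutant libraries and to 7.47, 6.72 and 5.49 CPM in WT libraries, a ratio of 1.38. Most of that difference came from 2 members. snoR39b had 2.56, 3.05 and 2.01 CPM in mutant libraries and 1.57, 1.35 and 0.86 in WT libraries. snoR54 had 1.54, 0.59 and 1.21 CPM against 0.48, 0.56 and 0.20. The sum therefore does not show a shift shared by the 10. Ribosomal RNA, which also lacks a poly(A) tail and is not a member, took 38.5, 33.1 and 43.8 CPM in mutant libraries and 82.2, 64.3 and 38.3 CPM in WT libraries. Its level was high in WT replicates 1 and 2 and low in WT replicate 3, and its part in the sums of the small RNAs was not tested. Sums over a group were given no test.

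**Figure D2:**
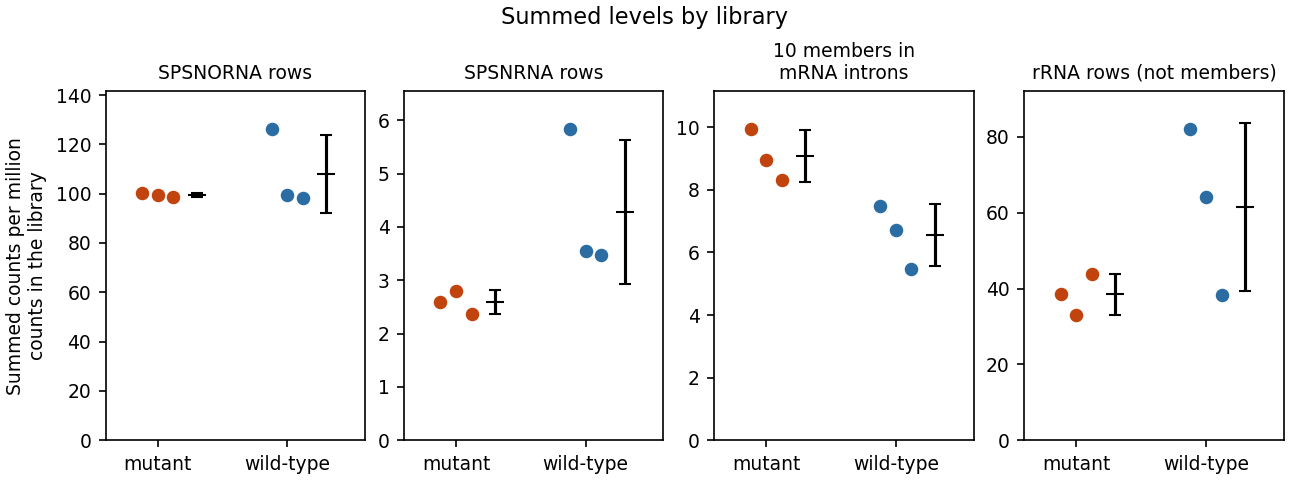
Summed CPM in each library (points, 3 per strain) with the mean and SD (bars) for SPSNORNA rows, SPSNRNA rows, the 10 members in mRNA introns, and ribosomal RNA rows for comparison. The SPSNRNA sums are lower in all 3 mutant libraries than in any WT library, the intron sums are higher, and the ribosomal RNA rows overlap because WT replicate 3 is low.

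The most abundant members were snoU14, snR30, snR101 and snR90, the only ones with 100 or more counts in every library, and their levels were close in both strains. snoU14, which in yeasts acts in both methylation and processing of the small subunit ribosomal RNA, had 449, 399 and 446 counts in mutant libraries and 348, 349 and 355 in WT libraries. After scaling for library size the mutant and WT values did not overlap, but by a small margin, with a log2 fold change of 0.14 ± 0.15 (SE) and an adjusted p of 0.591 by the quasi-likelihood test of edgeR. In CPM, scaled by library totals alone, the snoU14 values overlapped between strains. snR30 had 348, 328 and 324 counts in mutant libraries and 384, 345 and 349 in WT libraries, a log2 fold change of -0.26 ± 0.16 (SE, edgeR adjusted p = 0.320), and its scaled values overlapped between strains. The H/ACA RNA snR101 had 364, 312 and 400 counts in mutant libraries and 279, 351 and 367 in WT libraries. The H/ACA RNA snR90 had 179, 147 and 198 counts in mutant libraries and 113, 194 and 172 in WT libraries, also with overlapping groups. Their log2 fold changes were -0.04 and -0.01, with 95% intervals of -0.39 to 0.31 for snR101 and -0.42 to 0.40 for snR90. These intervals leave room for changes of up to about 0.4 on the log2 scale in either direction.

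In RPKM, which divides CPM by the gene length in kilobases, snoU14 led with means of 177 in the mutant and 164 in WT. snR101 followed with 60.2 RPKM in the mutant and 63.1 in WT, and snR30 with 47.0 in the mutant and 58.1 in WT. snR90, at 488 bases the longest member, stood at 16.4 RPKM in the mutant and 16.7 in WT. The length used is that of the annotated gene, and precursors among the counts may be longer, so this order is uncertain. sno52, short at 95 bases, had 106, 80 and 79 counts in mutant libraries and 66, 90 and 82 in WT libraries, and its log2 fold change was 0.01 with an edgeR adjusted p of 0.981. sno52 lies opposite an exon of *taf9*, so its counts are uncertain.

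A filter on low counts (filterByExpr) kept 5947 genes for the test between strains and 32 of the 60 members. The 28 left out were the 12 at 0 and 16 detected with few counts. The kept members had mean normalized counts of 12.4 to 391, where a normalized count is the count scaled to the mean library by edgeR's TMM factors, and 27 of the 32 were under 100. Their log2 fold changes ran from -1.002 to 1.46, with 14 above and 18 below 0, and 27 of the 32 within 2-fold. The median was -0.10, against 0.0018 over all genes tested, 0.022 over 4961 coding genes and -0.20 over 944 long noncoding RNAs. It was 0.017 without mutant replicate 2, so the median had no stable sign. The median standard error was 0.31 on the log2 scale, against 0.14 for all genes.

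Of the 32 members 4, or 12.5%, had an adjusted p of at most 0.05, and 12.4% of all genes tested did. The 4 split into 2 higher and 2 lower in the mutant, where 5.33% of all genes were higher and 7.03% lower. Among the 782 other genes in the same range of mean counts as the 27 low members, 15.5% passed. One of the 4 members that passed, snR95, lay above that range, with a mean normalized count of 110. At an unadjusted p under 0.05 there were 11 members, 4 higher and 7 lower, which is 34.4% of those tested against 27.4% of all genes. The share of members that passed was thus near the background. The call rule of the study's methods, which adds a 2-fold change and a mean of at least 100 normalized counts in the higher strain, called 0 members in edgeR, DESeq2 and limma-voom, and 2.09% of all genes in edgeR. Only 5 of the 32 members reached that mean, so the rule could not call the other 27 whatever their fold change. Without the mean of 100, which was dropped after the data were seen, the rule called 2 members, snoR39b and snR33, and 3.60% of all genes. The normalized counts of the strains did not overlap for 13 members, 7 higher and 6 lower, or for 33.7% of all genes tested.

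**Figure D3:**
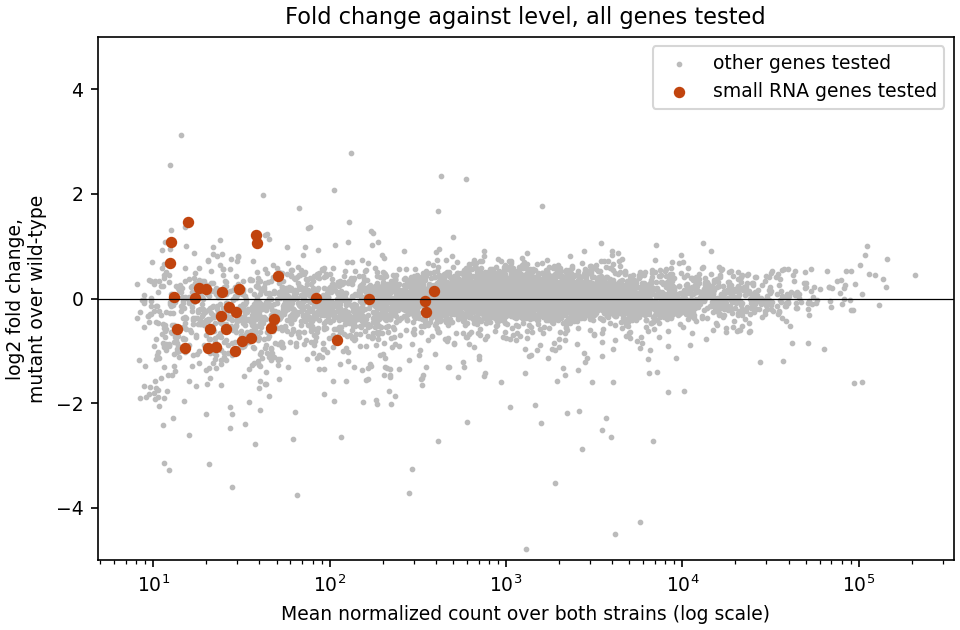
Log2 fold change of mutant over WT (vertical) against the mean normalized count over both strains (horizontal, log scale) for all 5947 genes tested, with the 32 small RNA genes in colour. Of the small RNA genes, 27 lie below a mean of 100, where all genes scatter widely, and 3 other genes fall outside the vertical axis.

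Of the members past the adjusted p, snoR39b and snR33 were higher in the mutant. snoR39b, named for a methylation guide of the large subunit ribosomal RNA and encoded in an intron of the ribosomal protein gene *rpl701*, had 58, 62 and 45 counts in mutant libraries and 26, 29 and 17 in WT libraries. Every mutant library was above every WT library, by 2.08-fold in the fit, with a log2 fold change of 1.05 ± 0.26 (SE, edgeR adjusted p = 0.0232). The H/ACA RNA snR33 had 62, 53 and 53 counts in mutant libraries and 27, 10 and 27 in WT libraries. The groups did not overlap, WT replicate 2 was the lowest, and the log2 fold change was 1.22 ± 0.34 (SE, edgeR adjusted p = 0.0385). Without WT replicate 2 the log2 fold change of snR33 was 0.81.

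The H/ACA RNAs snR95 and snR42 were lower in the mutant. snR95 had 78, 83 and 92 counts in mutant libraries and 149, 151 and 95 in WT libraries, a log2 fold change of -0.79 ± 0.21 (SE, edgeR adjusted p = 0.0302). Its WT counts were high in replicates 1 and 2 and close to the mutant counts in replicate 3, the order of the ribosomal RNA sums given above, whose part was not tested. snR42 had 30, 24 and 30 counts in mutant libraries and 41, 51 and 37 in WT libraries, without overlap, and a log2 fold change of -0.76 ± 0.23 (SE, edgeR adjusted p = 0.0485).

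Whether these 4 passed depended on single libraries. Their fold changes kept their direction, but this was no check. The scaled strains did not overlap for any of the 4, so leaving out 1 library could not reverse the direction, and the other settings reused the same libraries. The number of members past the edgeR adjusted p was 0 without mutant replicate 1 or without WT replicate 2, 1 without mutant replicate 2 or without mutant replicate 3, 3 without WT replicate 1, and 10 without WT replicate 3. The share of all genes that passed in each of these fits is not given here. The numbers therefore cannot be read as particular to the members. Over 14 alternative settings, snoR39b kept its adjusted p in 10, snR33 in 8, snR95 in 8 and snR42 in 4. Their adjusted p-values ranged over 0.0158 to 0.109 for snoR39b, 0.00194 to 0.129 for snR33, 0.000261 to 0.127 for snR95 and 0.0190 to 0.204 for snR42 over those settings. Their log2 fold changes ranged over 0.88 to 1.20 for snoR39b, 0.81 to 1.48 for snR33, -0.95 to -0.62 for snR95 and -0.83 to -0.71 for snR42.

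**Figure D4:**
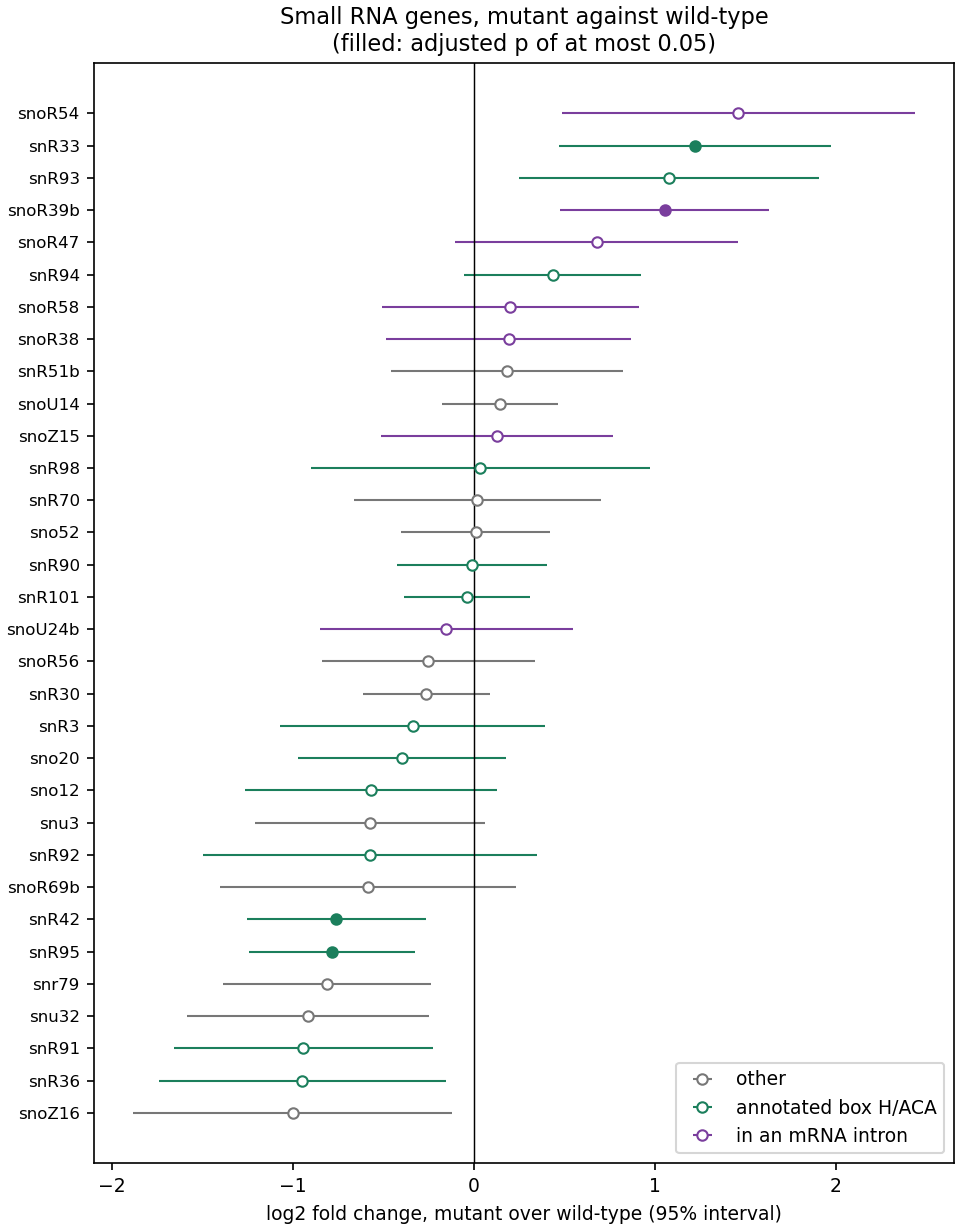
Log2 fold change of mutant over WT (points) with 95% intervals (lines) for the 32 tested members, ordered by size. Filled points mark the 4 members past an adjusted p of 0.05, snR33 and snoR39b above 0 and snR42 and snR95 below 0, and most other intervals are wide and reach 0.

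Several members had fold changes as large without passing the adjusted p. The largest fold change belonged to snoR54, in an intron of the IMP dehydrogenase gene *gua1*, with 35, 12 and 27 counts in mutant libraries and 8, 12 and 4 in WT libraries. Its log2 fold change was 1.46 ± 0.45 (SE, edgeR adjusted p = 0.0543), the scaled groups did not overlap, and over the 6 fits that each left out a library its adjusted p was 0.0235 to 0.206, at or under 0.05 only without mutant replicate 2 or without WT replicate 3. The H/ACA RNA snR93 had 13, 20 and 21 counts in mutant libraries and 7, 10 and 6 in WT libraries, with a log2 fold change of 1.08 and an edgeR adjusted p of 0.0885. Both groups were separate for snR93, at counts of 21 or fewer.

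On the lower side, snoZ16 had 18, 23 and 19 counts in mutant libraries and 58, 29 and 21 in WT libraries, a log2 fold change of -1.002 with an edgeR adjusted p of 0.130. Its scaled groups overlapped, and WT replicate 1 alone was far above the rest. Without that library the log2 fold change of snoZ16 was -0.41, and without WT replicate 3 it was -1.25 with an edgeR adjusted p of 0.00833. The H/ACA RNAs snR36 and snR91 had log2 fold changes of -0.95 and -0.94 and edgeR adjusted p-values of 0.114 and 0.0842. snR36 had 11, 13 and 8 counts in mutant libraries and 23, 17 and 16 in WT libraries, and snR91 had 10, 16 and 18 against 28, 30 and 19. snr79 had 28, 22 and 23 counts in mutant libraries and 44, 44 and 28 in WT libraries, a log2 fold change of -0.81 with an edgeR adjusted p of 0.0684. For snR36, snR91 and snr79 the strains did not overlap after scaling. snr79 lies opposite an exon of *gpi12* and snR36 partly opposite *psd1*, so their counts are uncertain.

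As a class, the H/ACA members lay below 0 more often than above it. Of 14 tested, 10 were below and 4 above 0, with a median log2 fold change of -0.37 and a range of -0.95 to 1.22, and 2 were lower and 1 higher at the adjusted p, where 7.03% of all genes were lower and 5.33% higher. The low-count filter kept snR36, snR91 and snR92 only with the help of their WT libraries. It kept snR33 and snR93 only with the help of their mutant libraries. The numbers above and below 0 are therefore no support for a shift of the H/ACA members. Among the better counted ones, snR94 was on the higher side, with 67, 60 and 57 counts in mutant libraries and 45, 36 and 41 in WT libraries and a log2 fold change of 0.44 ± 0.22 (SE, edgeR adjusted p = 0.237). sno12 had 44, 34 and 39 counts in mutant libraries and 77, 44 and 34 in WT libraries, and sno20 had 48, 37 and 46 against 67, 43 and 44. Both overlapped between strains, with WT replicate 1 the highest, and their log2 fold changes of -0.57 and -0.40 did not pass the test. Without WT replicate 1 they were -0.091 for sno12 and -0.094 for sno20, and without WT replicate 3 the edgeR adjusted p of sno12 was 0.0388. The 11 tested snoRNAs that are neither annotated as H/ACA nor in introns had 4 above and 7 below 0 and a median of -0.26, and none passed the adjusted p.

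**Figure D5:**
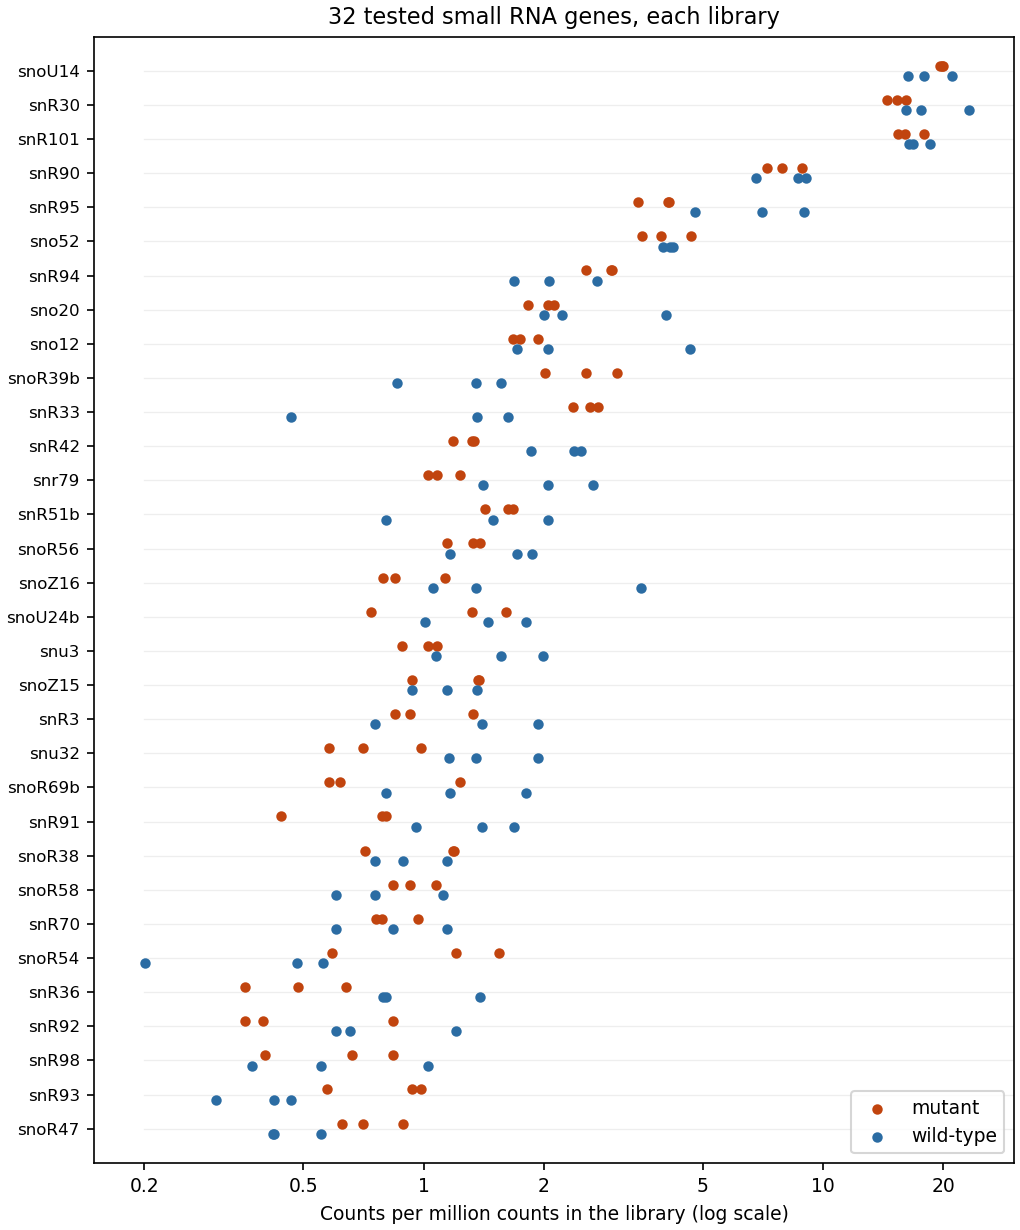
CPM in each library (horizontal, log scale) for the 32 tested members, ordered by mean level, with mutant points above WT points in each row. snoU14, snR30 and snR101 lead, most rows lie between 0.2 and 5 CPM, and WT replicates spread widely for snoZ16, sno12, sno20 and snR33.

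Of the 7 tested members in mRNA introns, 6 had a log2 fold change above 0 and 1 below. The median was 0.20, and only snoR39b passed the adjusted p. The low-count filter kept snoR47 and snoR54 only with the help of their mutant libraries, where they were higher. The number above 0 is therefore no support for a shift of the group. Counts over a gene in an intron can come from the snoRNA, its precursor or unspliced host RNA, which cannot be told apart here. The host of snoR39b, *rpl701*, had 58819, 54536 and 61275 counts in mutant libraries and 44794, 62288 and 60084 in WT libraries, and its log2 fold change was -0.08 with overlapping groups. The host of snoR54, *gua1*, had 29180, 29857 and 34430 counts in mutant libraries and 18229, 23810 and 22011 in WT libraries, with a log2 fold change of 0.40, past the adjusted p. Besides *gua1*, the hosts *cpc2*, the fission yeast RACK1 gene, and SPAC29A4.02c were higher at the adjusted p, with log2 fold changes of 0.36 and 0.38. The snoRNAs in those 2 hosts were at -0.15 for snoU24b in *cpc2* and 0.19 for snoR38 in SPAC29A4.02c. Their 95% intervals were wide, -0.85 to 0.55 for snoU24b and -0.48 to 0.87 for snoR38. The 95% intervals of host and snoRNA overlapped for *gua1* and snoR54, for *cpc2* and snoU24b, and for SPAC29A4.02c and snoR38. They did not overlap for *rpl701* (-0.32 to 0.16) and snoR39b (0.47 to 1.63). The difference between a host and its snoRNA was not tested.

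Both U3 genes had log2 fold changes below 0 without passing the adjusted p. U3 takes part in early cleavage of the ribosomal RNA precursor in the small subunit processome. snu3 had 20, 22 and 23 counts in mutant libraries and 33, 23 and 31 in WT libraries, and snu32 had 16, 20 and 13 against 32, 29 and 23. The strains overlapped for snu3 after scaling, at a log2 fold change of -0.57 (edgeR adjusted p = 0.234), and did not overlap for snu32, at -0.92 (edgeR adjusted p = 0.0741). The annotated snu3 gene aligns to snu32 with 82.7% identity over 173 bases, and the annotated snu32 gene aligns to the locus of snu3 and SPNCRNA.2435 with 91.4% identity over 256 bases, so reads of one may have been counted for the other or left out.

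None of the 5 spliceosomal snRNAs had enough counts to be tested. U1 (snu1), which pairs with the 5′ splice site, had 4, 1 and 3 counts in mutant libraries and 2, 2 and 3 in WT libraries. U2 (snu2), which pairs with the branch site, had 3, 4 and 5 counts in mutant libraries and 12, 9 and 6 in WT libraries, and was the only one of the 5 whose strains did not overlap. U4 (snu4), the partner of U6, had 6, 7 and 3 counts in mutant libraries and 4, 1 and 1 in WT libraries. U5 (snu5), which holds the exon ends, had 0, 0 and 1 against 3, 1 and 0, and U6 (snu6), at the catalytic centre, had 10, 3 and 5 against 11, 11 and 5. At these counts no difference could be detected for any of the 5: when the low-count filter was dropped, U2 came nearest, with an edgeR adjusted p of 0.145.

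Of the other untested members, only snR96 reached an adjusted p of at most 0.05 when the filter was dropped. Chosen after its values were seen, the H/ACA RNA snR96 had 0, 2 and 2 counts in mutant libraries and 6, 14 and 9 in WT libraries, with an edgeR adjusted p of 0.0199. Its strains did not overlap, and it lies partly opposite *tim17*. The snoU18 gene, in an intron of *ero11*, was also named after its values were seen, with 4, 4 and 1 counts in mutant libraries and 0 in every WT library, and an edgeR adjusted p of 0.102 without the filter. A count of 0 allows up to 3 counts, so no fold change is given for snoU18.

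Of the genes for proteins that bind, mature or degrade these RNAs, all 55 were tested and 11 were higher and 0 lower at the edgeR adjusted p, against 5.33% of all genes higher and 7.03% lower. None was called at 2-fold. Their median log2 fold change was 0.18. The lists were chosen with earlier results of these data known, and all genes tested include many with lower counts. These numbers are therefore no test of the lists. The box C/D particle had 3 of its 4 core genes higher: *fib1*, the methyltransferase fibrillarin, at 0.60, *nop58* at 0.58 and *nop56* at 0.50. Of the 4 H/ACA core genes, *cbf5*, the pseudouridine synthase, was higher at 0.59 and *gar1* at 0.38. The remaining core genes lay below 0 and did not pass, at -0.07 for *snu13* of the C/D particle and -0.04 for *nhp2* and -0.22 for *nop10* of the H/ACA particle. *fib1* had 15415, 15871 and 18349 counts in mutant libraries and 9058, 11042 and 9582 in WT libraries, and *cbf5* had 13282, 12881 and 14837 against 7851, 9545 and 7255, with no overlap for either. Of the 4 genes for proteins of the U3 processome, *imp4* was higher at 0.60 and *rrp9* at 0.48, and of 6 assembly factors *rvb1* was higher at 0.41.

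Among 13 genes of 3′ processing and decay, 2 were higher, both acting in transcription termination. *seb1*, whose product binds nascent RNA, had 4858, 4555 and 4732 counts in mutant libraries and 2397, 2820 and 2581 in WT libraries, a log2 fold change of 0.71 ± 0.09 (SE, edgeR adjusted p = 0.000314). Its strains were far apart in all 6 libraries, and *pcf11* was higher at 0.41. The precursor-binding protein gene *pab2* and the exosome nuclease gene *rrp6* did not pass, with log2 fold changes of -0.04 and 0.35. Of 7 Sm ring genes only *smb1* passed, at 0.32, and none of the 8 Lsm ring genes, the 8 genes for snRNP-specific proteins or the cap hypermethylase gene *tgs1* did. The number of listed genes higher or lower at the adjusted p was 4 without mutant replicate 2, without mutant replicate 3 or without WT replicate 2, 5 without mutant replicate 1, 23 without WT replicate 1 and 22 without WT replicate 3. Without WT replicate 3 these were 19 higher and 3 lower, whereas in all other fits run the listed genes past the adjusted p were higher. The share of all genes that passed in those fits is not given here, so the numbers cannot be read as particular to the lists.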

How the data were processed

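RNA-seq count data of 3 mutant and 3 WT cultures were analysed, with samples grouped by the genotype in the submitters' labels. The deposited values are raw counts per gene, which the authors made from paired-end reads of 51 bases of a directional poly(A)+ library with HISAT2 version 2.1.0 on the ASM294v2 build, SAMtools, and HTSeq version 0.10.0 over exons. Neither strand setting nor overlap mode of HTSeq is given in the sources used here. The authors' table of their own DESeq2 comparison (fold changes, p-values and averages) was not used. Of 6988 features, 6836 were paired by systematic ID with RefSeq ASM294v3, used for names, classes, positions relative to other genes and sequences, and 152 were not paired.

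The quasi-likelihood test of edgeR version 4.0.16 (under R version 4.3.3; glmQLFit, then glmQLFTest) was applied to the 5947 genes that passed filterByExpr, with TMM scaling and p-values adjusted by Benjamini-Hochberg over all of them. Standard errors were derived from log2 fold change and F statistic. Scripts were tested on simulated counts. Named were members that were called, the spliceosomal RNAs and U3, the 10 with the highest mean count, the 10 with the largest fold change, the 10 with the smallest p, up to 4 genes of each protein list with the smallest p, and the altered genes. The members and lists were chosen with earlier results of these data known. Alternatives were RLE factors, library totals or TMM from coding genes, dropping the filter or requiring 10 counts in all libraries, DESeq2 version 1.42.0, limma-voom (limma version 3.58.1), the replicate number as a block, and leaving out each library. Chi-square values per degree of freedom were 5.91 to 65.8 between replicates, so no library was a repeat of another. CPM bounds for a count of 0 cover counting error only.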

Additional observations from a re-analysis of the deposited data

How the results depend on the processing

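The number of small RNA genes called under the full rule was 0 in every alternative fit, and was 2 only where the minimum mean of 100 was dropped, a change chosen after seeing the data. In the main fit 27 of the 32 tested members were under that mean and could not be called, so the 0 says little about them. The number past the adjusted p of 0.05 was 4, against 1 with library totals, 3 with RLE factors, TMM from coding genes, DESeq2 or limma-voom, and 0 to 10 when each library was left out. The same-numbered replicates did not deviate together (correlations of -0.06 to -0.03), so the numbers give no pairing, and with the replicate block 2 genes passed. The median log2 fold change was -0.22 to 0.017 when each library was left out, and turned to 0.017 without mutant replicate 2. The protein gene count was 11, against 7 with library totals and 4 to 23 when each library was left out. For these alternative fits the share of all genes past the adjusted p is not given. Members with fold changes near 0 turned sign: sno52 was -0.020 with library totals, -0.047 with TMM from coding genes and -0.10 to 0.098 over the left-out libraries; snR90 was 0.0034 with limma-voom, 0.0025 with the block and -0.17 to 0.081 over the left-out libraries; snR101 was -0.11 to 0.070 over them. The ratio of summed CPM was 0.87 to 0.998 over the left-out libraries. The cause of these shifts was not tested. With 3 libraries per strain an exact permutation test cannot go below a two-sided p of 0.1, and for the 27 tested members with means under 100 counting error limits what can be detected.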
